A study of Mus musculus with 73 samples.

Results

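The 86 genes described here are those that lay above both control stages in mouse 8-cell embryos with p150DN. From the deposited FPKM values (fragments per kilobase of gene, scaled to the depth of each library), a gene was kept where its lowest value in 3 p150DN libraries was at least 1.3 times its highest value in 5 control libraries and its mean over the p150DN libraries was at least 3 FPKM. Of 25220 genes in the table, 97 met these values. Of these, 11 were left out by symbol: 6 predicted or unnamed genes, and 5 genes set aside by name, namely Chaf1a, which encodes p150, the p53 targets Cdkn1a, Mdm2 and Bbc3, and Id3. The 86 genes are 0.998% of the 8619 genes of that mean level with an admissible symbol. The genes were thus chosen by their FPKM in all 8 libraries, so their difference from the controls is given as a description, with no test.

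RNA-seq was made from whole embryos of hybrid C57BL/6 / C3H background grown in KSOM medium. The groups were EGFP 8-cell (3 libraries), p150DN 8-cell (3 libraries) and EGFP blastocyst (2 libraries). The labels give no treatment for these RNA samples. For other embryos of the series they describe injected mRNA for EGFP or for p150DN fused to it. They name neither the number of embryos in a library nor a separate culture for each replicate. A p-value here therefore weighs a difference against a spread between libraries that may be technical. Both control groups are labelled EGFP, so EGFP is shared by the controls of either stage, and the p150DN group has no blastocyst library.

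Chromatin assembly factor 1 (CAF-1), of which p150 is the large subunit, places newly made histones H3 and H4 on DNA behind the replication fork, and p150DN names a dominant-negative form of it. Where this supply fails, the histone variant H3.3 can be placed by other chaperones independently of replication. In the mouse, CAF-1 is needed for early cleavage, and its loss in cultured cells eases access to genes that the cell type normally keeps silent. A gene in the 8-cell embryo may rise because development goes on. A blastocyst control shows such a rise only where it lasts to that stage. The RNA libraries include no stage between the 8-cell embryo and the blastocyst, so a peak there would not be seen. The 86 genes lie above the level of both stages.

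Values are given below in replicate order. Chaf1a, the gene of p150, measured 27.7, 30.2 and 28.8 FPKM in EGFP 8-cell, 26.5 and 27.2 in blastocyst and 165.5, 254.1 and 238.0 in p150DN libraries. The p150DN libraries did not overlap the controls. These values do not tell RNA of the embryo's own gene from RNA of an introduced p150DN, if these embryos received it. In whole embryos, a change in the number of cells of a type and a change in RNA per cell cannot be told apart. Between 16578221 and 22488477 fragments were counted per library, and each library held 17310 to 21282 genes above 0 FPKM. With marker lists of developmental stage, the summed FPKM of 2-cell genes was 1559 to 1911 in p150DN libraries, between 2230 to 2657 in the EGFP 8-cell and 703.0 to 788.3 in the blastocyst libraries. Trophectoderm genes summed to 1129 to 1665, again between the EGFP 8-cell (702.6 to 892.7) and the blastocyst (2662 to 2893) libraries.

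The ratio that ranked the genes, the lowest p150DN value over the highest control value, ran from 1.302 to 9.73 with a median of 1.42. It reached 1.5 in 34 genes, 2 in 20, 3 in 7 and 5 in 2. Most of the genes were weakly expressed: 53 had a mean under 10 FPKM in p150DN embryos, 18 had at least 20 FPKM, and 2 exceeded 100 FPKM. The highest control library was an EGFP 8-cell library for 44 genes and a blastocyst library for 42. In 9 genes no control library reached 1 FPKM, and in 26 every control library held at least 3 FPKM. On this account the group mixes genes nearly silent in controls with genes that were active in all libraries and modestly higher in p150DN. Fragments in the least covered p150DN library ranged from 14 to 6789, with a median of 308, and 9 genes rested on fewer than 50. The mirror rule, every control at least 1.3 times the highest p150DN library, found 10 of 8393 genes (0.119%).

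Many of the genes with the largest ratios had promoters poor in CpG. CpG-rich promoters are typical of broadly active genes, and CpG-poor ones of genes used in few tissues. RefSeq promoter windows of assembly GRCm38.p6 (250 bases before to 50 after a start site) were found for 69 of the 86 genes. The stretches below show the 100 bases before the start site of the first listed window, 5′ to 3′ on the gene's strand, with each CpG in capitals. The first 4 are among the genes of highest ratio and the last 3 are genes with smaller ratios and higher levels, shown to set the CpG content side by side.
Reg1: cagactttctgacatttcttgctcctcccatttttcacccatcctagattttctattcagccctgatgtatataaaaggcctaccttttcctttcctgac
Asb12: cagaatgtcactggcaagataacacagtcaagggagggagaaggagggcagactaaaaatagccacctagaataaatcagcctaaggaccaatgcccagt
S100a3: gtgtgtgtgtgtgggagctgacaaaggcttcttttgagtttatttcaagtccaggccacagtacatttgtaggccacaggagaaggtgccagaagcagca
Il33: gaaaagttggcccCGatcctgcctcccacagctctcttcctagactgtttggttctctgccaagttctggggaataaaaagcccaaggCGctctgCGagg
Slc3a2: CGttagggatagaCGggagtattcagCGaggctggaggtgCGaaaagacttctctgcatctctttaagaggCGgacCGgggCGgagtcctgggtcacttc
Lasp1: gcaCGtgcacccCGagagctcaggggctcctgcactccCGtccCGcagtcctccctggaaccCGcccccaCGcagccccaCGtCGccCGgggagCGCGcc
Rbm38: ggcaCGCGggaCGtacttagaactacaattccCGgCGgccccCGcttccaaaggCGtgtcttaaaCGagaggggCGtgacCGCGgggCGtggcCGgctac

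The printed stretches of Reg1, Asb12 and S100a3 hold no CpG and that of Il33 holds 3, against 7, 11 and 13 in Slc3a2, Lasp1 and Rbm38. They lie before the start sites, at chr6:78425883-78425982 (Reg1), chrX:95478130-95478229 (Asb12), chr3:90584559-90584658 (S100a3), chr19:29925013-29925112 (Il33), chr19:8713898-8713997 (Slc3a2), chr11:97799465-97799564 (Lasp1) and chr2:173021802-173021901 (Rbm38), and those of Asb12 and Slc3a2 are read from the minus strand. Of the genes with a window, 26 (37.7%) held fewer than 10 CpG in 300 bases, against 12.3% of 6930 genes of mean p150DN of at least 3 FPKM. Among genes of ratio 2 or more, 12 of 15 fell under that limit, with a median of 4 CpG, and Madd, C1ql4 and App did not. Among genes of smaller ratio 14 of 54 did, with a median of 20.5 CpG. In the whole table, 15.9% of genes of 3 to 10 FPKM in p150DN, 11.3% of those of 10 to 30 FPKM and 8.85% of those above fell under the limit. Within the band of 3 to 10 FPKM, 21 of 41 of the described genes (51.2%) fell under the limit. At 10 to 30 FPKM 5 of 19 (26.3%) did, and above that level 0 of 9 did, so the gap was present in both lower bands and not in the highest, which holds few of the described genes. The bands use the p150DN mean, which the rule required to lie above the controls. They do not match the described genes to others of like control level, so the part of low control level in the gap was not tested. The limit was set with the data in view, and no test was made.

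**Figure D1:**
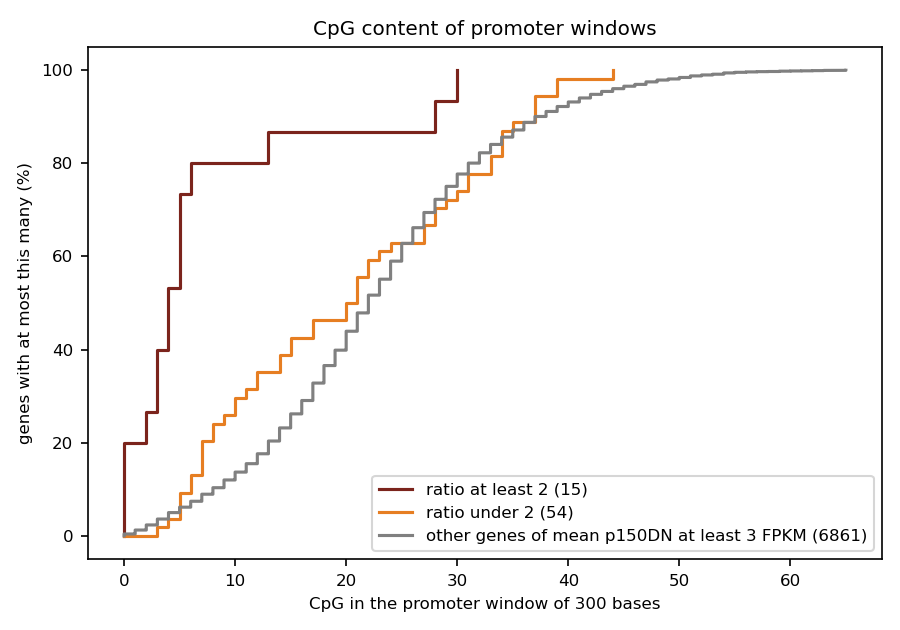
Share of genes (y axis, percent) whose promoter window of 300 bases holds at most the number of CpG on the x axis, for genes above both controls with a ratio of at least 2 (15 genes) or under 2 (54 genes) and for other genes of mean p150DN of at least 3 FPKM. The line of the genes of ratio 2 or more rises first, and 12 of its 15 genes lie under 10 CpG.

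The windows were searched on both strands for 15 motifs, with overlapping sites of different motifs each counted. The p53 half-site, the 10-base element that p53 binds in paired copies, was present in 15 of the 69 genes (21.7%), against 8.12% of genes of mean p150DN of at least 3 FPKM and 8.36% of all 32851 windows. Several established p53 targets had been set aside by name, and the 15 genes are Asb12, S100a3, Stfa2l1, Hspa2, Rec114, Cd68, Abracl, Ddit4l, Ackr3, Nkx2-9, Nid1, Nanos1, St5, Fam83b and Osbpl6. Plk2, Slc19a2 and Rbm38, described below as induced by or targets of p53, have a window and hold no match. Restricted to the bases before the start site, 12 genes (17.4%) held the motif, against 7.14%. The sites in 6 of them are shown in capitals with the bases around them, since this was the motif of the 15 with the widest excess in percentage points.
Asb12: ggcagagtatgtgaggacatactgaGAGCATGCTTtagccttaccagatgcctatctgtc
Stfa2l1: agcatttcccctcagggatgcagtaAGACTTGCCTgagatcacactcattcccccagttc
Hspa2: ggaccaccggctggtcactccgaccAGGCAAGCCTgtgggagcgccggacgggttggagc
Cd68: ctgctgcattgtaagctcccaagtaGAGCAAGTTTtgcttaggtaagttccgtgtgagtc
Ddit4l: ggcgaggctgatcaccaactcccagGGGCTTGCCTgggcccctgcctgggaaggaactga
Osbpl6: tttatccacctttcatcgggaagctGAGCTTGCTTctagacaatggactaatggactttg

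These stretches are chrX:95478305-95478364 (Asb12, minus strand), chr16:36156668-36156727 (Stfa2l1), chr12:76404263-76404322 (Hspa2), chr11:69666314-69666373 (Cd68, minus strand), chr3:137623557-137623616 (Ddit4l) and chr2:76498935-76498994 (Osbpl6). The sites begin 210, 118, 82, 178, 90 and 46 bases before the start. A match is a run of letters and not a measured binding site. Among the other motifs, the ETS site CCGGAAG was less frequent than in the background (10.1% against 23.8% of genes), as was the GC box GGGCGG (59.4% against 70.9%). Both motifs hold a CpG, and the background was not matched for CpG content, so these shares are not separate from the CpG counts above. The AP-1 site TGACTCA was found in 4 of 69 windows (5.80% against 3.82% of genes), in Reg1, Cd68, Msmo1 and Adgrg1. The TATA box TATAAA was found in 7 (10.1% against 8.38%), Reg1, S100a3 and Il33 among them. The CEBP-ATF element, searched only as TGATGCAA, was found in none of these windows. It was present in just 0.577% of genes of mean p150DN of at least 3 FPKM, so nothing is read from its absence.

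Secreted and immune proteins made up several of the largest differences. Reg1, a secreted lectin-like protein of the exocrine pancreas, measured 0, 0.321 and 0.268 FPKM in EGFP 8-cell, 0 and 0 in blastocyst and 3.12, 6.50 and 3.83 in p150DN libraries. Both blastocyst libraries and EGFP 8-cell replicate 1 were at 0, and p150DN replicate 2 was the highest. The sums behind these values were 196 fragments over the p150DN libraries and 9 over the controls. Il33, the alarmin of the interleukin-1 family, measured 0.863, 0.109 and 0.626 FPKM in EGFP 8-cell, 0.663 and 0.832 in blastocyst and 2.72, 5.85 and 3.12 in p150DN libraries. The control stages overlapped, and again replicate 2 stood above the other p150DN libraries. Il23a, the specific subunit of interleukin-23, had 3.00, 1.32 and 6.12 FPKM in p150DN libraries, while all controls lay between 0.109 and 0.646 FPKM. Here replicate 3 was the highest and replicate 2 the lowest.

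C1ql4, a secreted protein with a C1q domain, measured 0.536, 1.45 and 1.66 FPKM in EGFP 8-cell, 2.88 and 1.49 in blastocyst and 8.83, 15.1 and 11.8 in p150DN libraries, and the control groups overlapped. Its mean difference from EGFP 8-cell embryos was 2.55 ± 0.27 (log2(FPKM + 1) scale, SE from the fit). Stfa2l1, a stefin that inhibits cysteine proteases, was carried by replicate 2: its p150DN values were 3.79, 16.6 and 2.04 FPKM, and the lowest rested on 14 fragments. Igflr1, a receptor of IGF-like ligands, was carried by p150DN replicate 1, at 10.1, 1.38 and 1.27 FPKM over the p150DN libraries, against 0.250 to 0.829 in controls. Cd68, a lysosomal glycoprotein of macrophages, was steadier, at 5.98, 6.56 and 6.43 FPKM in p150DN libraries and 2.24 to 3.82 in controls. The list of blood and immune markers that holds Cd68 summed to 19.6 to 28.9 FPKM in p150DN, 22.7 to 29.0 in EGFP 8-cell and 9.98 to 13.8 in blastocyst libraries. Of its 27 genes, 4 were at 0 in all libraries. Against EGFP 8-cell embryos 2 were tested, of which 1 was higher and 1 lower in p150DN. The lower one was Pecam1, with a log2 difference of -0.66 (limma adjusted p = 0.0186). It measured 16.48, 20.53 and 17.25 FPKM in EGFP 8-cell, 8.24 and 4.14 in blastocyst and 9.145, 10.9 and 13.3 in p150DN libraries. Dok2, an adaptor below tyrosine kinases in blood cells, measured 1.93, 0.749 and 3.22 FPKM in EGFP 8-cell, 3.40 and 3.47 in blastocyst and 8.83, 12.1 and 11.7 in p150DN libraries. It overlaps Xpo7, which ran at 18.2 to 23.7 FPKM, so its counting is uncertain.

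**Figure D2:**
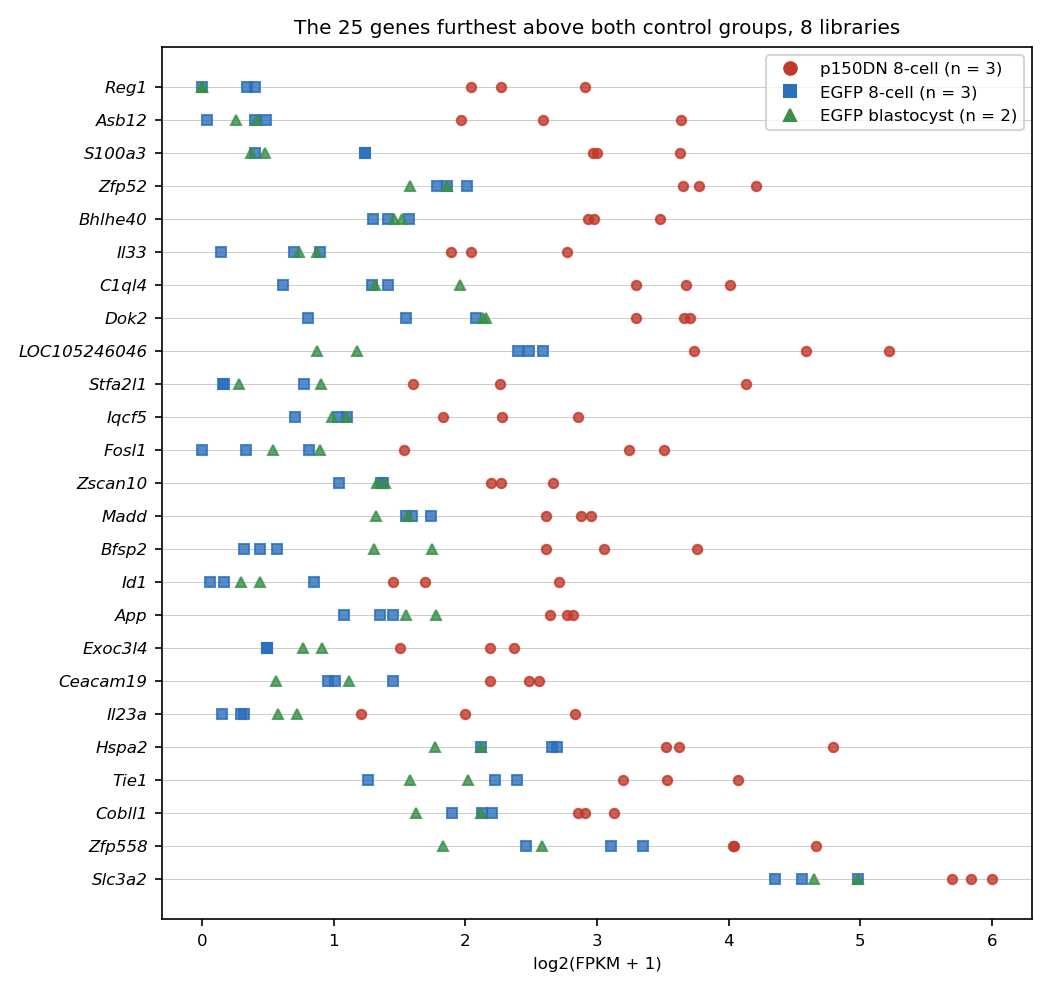
log2(FPKM + 1) (x axis) in each of the 8 libraries for the 25 genes of largest ratio (y axis), with p150DN 8-cell libraries as circles, EGFP 8-cell libraries as squares and EGFP blastocyst libraries as triangles. In each row the 3 circles lie to the right of all control points, as the rule requires.

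The immediate-early and helix-loop-helix regulators chosen by the rule were low in controls. Not all genes of the lists that hold Fosl1 or Id1 were. The AP-1 and immediate-early list summed to 264.5 to 410.9 FPKM over the control libraries. Id2 is in the TGF-β and BMP list with Id1. It measured 0.680, 0.272 and 1.06 FPKM in EGFP 8-cell, 117.5 and 104.8 in blastocyst and 3.28, 11.9 and 14.5 in p150DN libraries. Its log2 difference was -3.56 from blastocysts (limma adjusted p = 0.00619). Fosl1, which encodes the AP-1 subunit Fra-1, measured 0, 0.261 and 0.758 FPKM in EGFP 8-cell, 0.454 and 0.861 in blastocyst and 1.90, 10.4 and 8.49 in p150DN libraries. p150DN replicates 2 and 3 stood well apart from replicate 1. Its neighbour Ccdc85b, which overlaps it, measured 1.76, 4.90 and 3.81 FPKM in p150DN libraries and at most 1.51 in controls, so the counting of the pair is uncertain. Dusp5, a nuclear phosphatase of ERK induced by ERK signalling, had 1.97, 4.45 and 3.85 FPKM in p150DN libraries, with the controls between 0.344 and 1.51. Bhlhe40, a transcriptional repressor of clock and hypoxia responses, measured 1.67, 1.97 and 1.46 FPKM in EGFP 8-cell, 1.88 and 1.74 in blastocyst and 6.89, 10.2 and 6.63 in p150DN libraries. The 5 control libraries lay within a narrow band and all p150DN libraries far above it. Id1, a helix-loop-helix protein that lacks a DNA-binding region and is a target of BMP signalling, had 1.74, 5.55 and 2.24 FPKM in p150DN libraries and at most 0.802 in controls. Ankrd37, a target of the hypoxia factor HIF-1, stood out in replicate 1 (5.65, 2.26 and 1.94 FPKM), and it overlaps Ufsp2.

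Amino acid handling genes were active in all libraries, and their p150DN values lay a smaller factor above the controls. Slc3a2, the heavy chain shared by several amino acid exchangers, measured 22.5, 30.7 and 19.5 FPKM in EGFP 8-cell, 30.5 and 24.1 in blastocyst and 56.5, 63.2 and 50.9 in p150DN libraries. The control stages overlapped and the p150DN libraries were close to each other. Asns, asparagine synthetase and a classic target of ATF4, measured 5.46, 4.04 and 5.38 FPKM in EGFP 8-cell, 7.06 and 8.76 in blastocyst and 12.5, 16.4 and 14.6 in p150DN libraries. It was higher in both blastocyst libraries than in the 8-cell libraries, and higher again in p150DN. Arg2, mitochondrial arginase, reached 4.26, 8.73 and 11.7 FPKM with controls of 1.76 to 3.06. Impact, an imprinted gene whose product restrains the amino acid sensor GCN2, had 16.8, 19.8 and 19.07 FPKM over controls of 10.3 to 12.5. Ddit4l, an inhibitor of mTORC1, measured 5.26, 5.07 and 4.81 FPKM in EGFP 8-cell, 6.13 and 10.5 in blastocyst and 14.9, 15.0 and 18.0 in p150DN libraries, and blastocyst replicate 2 was its highest control.

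The wider list of integrated stress response and amino acid genes was mixed. Against EGFP 8-cell embryos, 10 of its 34 tested genes were higher and 2 lower (limma adjusted p below 0.05), where 24.6% of all 11730 tested genes were higher and 9.68% lower. Against blastocysts 10 were higher and 3 lower, where 11.9% of 12648 tested genes were higher and 14.2% lower. With median-of-ratios scaling the first count became 8 higher and 7 lower. These comparisons share the p150DN libraries, and Slc3a2 and Asns are in both counts. Ass1, argininosuccinate synthase, measured 1.83, 2.36 and 3.62 FPKM in EGFP 8-cell, 150.7 and 156.5 in blastocyst, and 61.6, 61.5 and 61.1 in p150DN libraries. It rose in p150DN over EGFP 8-cell embryos (log2 difference 4.15 ± 0.19 SE, limma adjusted p = 2.26e-05), and no p150DN library reached the blastocyst values. Cebpg, a partner of ATF4, fell by 0.60 on the log2 scale (limma adjusted p = 0.0306).

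Several genes tied to p53 or cell death remained after the removal by name. Plk2, a polo-like kinase induced by p53, measured 18.4, 10.9 and 14.3 FPKM in EGFP 8-cell, 24.3 and 24.8 in blastocyst and 80.7, 35.8 and 40.2 in p150DN libraries. p150DN replicate 1 was the highest library, and both blastocyst libraries exceeded the 8-cell libraries. Slc19a2, a thiamine transporter and p53 target, measured 4.14, 2.70 and 3.82 FPKM in EGFP 8-cell, 10.6 and 6.58 in blastocyst and 15.2, 17.6 and 17.9 in p150DN libraries. Rbm38, an RNA-binding protein induced by p53, measured 10.04, 10.03 and 8.34 FPKM in EGFP 8-cell, 23.0 and 21.8 in blastocyst and 31.4, 55.9 and 41.9 in p150DN libraries. All 3 genes thus stepped up from 8-cell to blastocyst to p150DN. Bcl2l11, which encodes the pro-apoptotic protein BIM, differed in that: it had 2.32, 3.28 and 3.11 FPKM in EGFP 8-cell, 2.73 and 3.27 in blastocyst and 5.11, 10 and 8.09 in p150DN libraries, with the control stages overlapping. Stn1, a subunit of the CST complex that helps fill in lagging-strand ends, was even across p150DN libraries (14.04, 14.8 and 14.3 FPKM) over controls of 6.55 to 9.45.

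In the list of p53 targets of arrest and repair, 29 of 41 tested genes were higher in p150DN than in EGFP 8-cell embryos and 3 lower, with a median log2 difference of 1.297 against 0.19 for all tested genes. Against blastocysts 9 of 41 were higher and 1 lower, with a median of 0.30 against -0.05. Genes removed from the 86 by name are in these counts, and the list was chosen with earlier results known. Ccng1, cyclin G1, measured 15.9, 10.4 and 13.96 FPKM in EGFP 8-cell, 113 and 125.7 in blastocyst, and 112.5, 101.2 and 108.5 in p150DN libraries. It rose by 2.93 ± 0.16 (SE) on the log2 scale over EGFP 8-cell embryos (limma adjusted p = 4.42e-05), while its difference from blastocysts, -0.15, did not pass the test (limma adjusted p = 0.402). Btg2, an antiproliferative gene, rose by 3.45 ± 0.26 over EGFP 8-cell embryos (limma adjusted p = 0.000165). Ei24, also a p53 target, fell by 0.72 (limma adjusted p = 0.0116). In the cell death list, which holds Bcl2l11, 10 of 27 tested genes were higher and 3 lower against EGFP 8-cell embryos (24.6% and 9.68% of all tested genes), and 7 and 4 of 31 against blastocysts (11.9% and 14.2%). Median-of-ratios scaling gave 6 higher and 4 lower against EGFP 8-cell embryos. Where a group is left with 1 library, the spread comes from the other group alone, and the lone library is assumed to vary like it. With replicate 1 as the sole p150DN library 4 of 23 were higher and 2 lower against EGFP 8-cell embryos, and without p150DN replicate 3 these were 6 and 3.

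Some receptors known from the vessel wall were among the weakly expressed genes chosen by the rule. No list of vessel wall genes was tested, so nothing is read about such genes as a group. Pecam1, given above with the blood markers, was lower in p150DN than in EGFP 8-cell embryos. Tie1, a receptor kinase of endothelial cells, measured 1.40, 3.67 and 4.25 FPKM in EGFP 8-cell, 1.997 and 3.06 in blastocyst and 8.16, 15.9 and 10.6 in p150DN libraries. EGFP 8-cell replicate 1 was lower than the other controls, and p150DN replicate 2 was the highest. Eng, endoglin, a co-receptor of TGF-β, had 4.58, 7.82 and 7.62 FPKM in p150DN libraries over controls of 2.14 to 3.12. Ackr3, a scavenger receptor of the chemokine CXCL12, had 2.71, 4.54 and 3.15 FPKM over controls of 0.362 to 1.92. Antxr1, a collagen-binding receptor also used by anthrax toxin, measured 1.34, 1.84 and 1.41 FPKM in EGFP 8-cell, 0.206 and 0.296 in blastocyst and 2.48, 4.65 and 3.54 in p150DN libraries. It was lower in both blastocyst libraries than in any 8-cell library. Adgrg1, an adhesion G protein-coupled receptor, lay just inside the limit at a ratio of 1.302. Nid1, a linker protein of basement membranes, was low in blastocyst replicate 2: it had 37.0, 37.1 and 31.1 FPKM in EGFP 8-cell, 35.1 and 11.8 in blastocyst and 50.4, 50.2 and 57.8 in p150DN libraries. In the TGF-β and BMP list, which holds Id1, 6 of 15 tested genes were higher and 1 lower against EGFP 8-cell embryos (24.6% and 9.68% of all tested genes), and 4 and 3 of 18 against blastocysts (11.9% and 14.2%). With replicate 1 as the sole p150DN library, 2 of 11 were higher and 2 lower against EGFP 8-cell embryos, under the assumption given above for a lone library.

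Transcription factors and zinc finger genes ranged over more than an order of magnitude in level. Zfp52, a zinc finger gene, measured 2.44, 2.62 and 3.04 FPKM in EGFP 8-cell, 2.63 and 1.996 in blastocyst and 12.7, 17.5 and 11.6 in p150DN libraries. The 5 controls lay close together, and the ratio was 3.81. Zfp558 followed at 15.5, 24.3 and 15.4 FPKM over controls of 2.55 to 9.20. Zscan10, a factor of pluripotent cells, had 3.82, 3.59 and 5.36 FPKM over controls of 1.06 to 1.63. Foxi3, a forkhead factor of ectoderm, was the most abundant of the factors named here, at 29.5, 44.7 and 33.1 FPKM in EGFP 8-cell, 14.7 and 13.6 in blastocyst and 60.9, 67.3 and 82.0 in p150DN libraries. Nkx2-9, a homeobox factor of the ventral neural tube, had the opposite order of controls: 0.650, 0 and 0.288 FPKM in EGFP 8-cell, 4.98 and 4.46 in blastocyst and 10.8, 11.3 and 7.01 in p150DN libraries. Hhex, a homeobox factor of anterior endoderm and blood vessel precursors, shared that order, at 5.50, 4.41 and 4.47, then 12.4 and 10.5, then 16.6, 19.14 and 18.7 FPKM in the same order of groups. Mybl1, the A-MYB factor of male meiosis, had 5.73, 9.71 and 9.98 FPKM over controls of 2.54 to 3.75, and Zfp750, a factor of skin differentiation, had 4.92, 6.20 and 3.59 over 0.800 to 2.25 but lies inside Tbcd.

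Genes best known from the germ line, cilia and other differentiated tissues were present at low level. Hspa2, a heat shock protein 70 of spermatocytes, measured 5.30, 5.48 and 3.36 FPKM in EGFP 8-cell, 3.35 and 2.40 in blastocyst and 11.3, 26.8 and 10.5 in p150DN libraries. Replicate 2 was well above the other p150DN libraries. Rec114, needed for meiotic double-strand breaks, had 6.23, 4.92 and 5.81 FPKM over controls of 1.23 to 3.02, and overlaps Nptn. Iqcf5, a testis gene, had 6.22, 3.85 and 2.55 FPKM over controls of 0.636 to 1.15, its lowest p150DN value resting on 23 fragments. Nanos1, an RNA-binding regulator, had 4.29, 7.59 and 4.10, and the ciliary Ccdc65 had 2.47, 4.38 and 3.54 FPKM. In both genes replicate 2 was the highest. Bfsp2, a lens filament protein, measured 0.359, 0.246 and 0.483 FPKM in EGFP 8-cell, 1.48 and 2.35 in blastocyst and 5.10, 12.6 and 7.29 in p150DN libraries. Mlana, an antigen of pigment cells, was at 0 in 2 of the EGFP 8-cell libraries and at 0.112 in the third, at 1.23 and 2.31 in blastocyst and at 4.47, 4.21 and 3.27 FPKM in p150DN libraries, where its lowest value rested on 25 fragments. S100a3, a calcium-binding protein of the hair cuticle, measured 1.37, 0.325 and 1.36 FPKM in EGFP 8-cell, 0.396 and 0.292 in blastocyst and 6.82, 6.99 and 11.4 in p150DN libraries, and its control groups overlapped. Asb12, which belongs to a family of ubiquitin ligase adaptors, measured 0.0301, 0.403 and 0.324 FPKM in EGFP 8-cell, 0.194 and 0.334 in blastocyst and 2.92, 11.4 and 5.03 in p150DN libraries, with replicate 2 the highest. Chrna9, a nicotinic receptor subunit of the inner ear, was even across p150DN libraries, at 3.41, 3.57 and 3.37 FPKM.

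Lasp1, an actin-binding protein of adhesion sites, measured 82.8, 64.4 and 66.2 FPKM in EGFP 8-cell, 73.3 and 80.8 in blastocyst and 116.6, 116.6 and 115.6 in p150DN libraries. Chchd2, a mitochondrial protein that also acts in the nucleus under low oxygen, measured 164.2, 168.0 and 159.9 FPKM in EGFP 8-cell, 164.9 and 166.7 in blastocyst and 237.4, 232.4 and 234.7 in p150DN libraries. In both genes the p150DN libraries spread less than the gap to the nearest control, with 3540 or more fragments in each p150DN library. That gap depends on the scaling. Their ratios of 1.397 and 1.384 became 1.042 and 1.067 after median-of-ratios scaling, and 1.408 and 1.389 after quantile normalization. Nid1 and Rnf149 likewise had 1.036 and 1.007 with the first scaling, and 1.342 and 1.29 with the second. Mrps6, a protein of the small mitochondrial ribosomal subunit, had 26.0, 16.7 and 32.1 FPKM in EGFP 8-cell, 46.6 and 43.2 in blastocyst and 66.8, 75.2 and 64.2 in p150DN libraries, but overlaps Slc5a3, whose p150DN values were 11.5, 28.2 and 17.7 FPKM. Cox6b2, the testis form of a cytochrome oxidase subunit, had 9.23, 11.5 and 11.9 FPKM in p150DN libraries over controls of 1.51 to 6.86. Msmo1, a sterol oxidase of cholesterol synthesis, measured 27.1, 24.0 and 28.0 FPKM in EGFP 8-cell, 25.1 and 24.3 in blastocyst and 45.5, 38.4 and 50.2 in p150DN libraries. The lipases differed in level, with Pnliprp2 at 19.03, 20.9 and 26.5 and Liph at 3.03, 8.54 and 10.4 FPKM in p150DN libraries. Osbpl6, an oxysterol-binding protein relative, had 20.5, 19.7 and 22.8 FPKM over controls of 9.40 to 15.1, and its lowest p150DN library no longer exceeded the highest control after median-of-ratios scaling.

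The remaining genes have mixed roles. Of the cytoskeletal genes, Cobll1 had 6.25, 6.53 and 7.76, Dmtn 6.33, 7.41 and 9.08, Abracl 6.57, 7.19 and 11.6, Amotl1 3.07, 6.71 and 3.32 and Marveld1 2.97, 5.17 and 2.41 FPKM in p150DN libraries. Uchl1, a deubiquitinating enzyme of neurons and oocytes, had 8.79, 10.9 and 9.11 FPKM in EGFP 8-cell, 10.5 and 15.2 in blastocyst and 21.3, 30.3 and 25.6 in p150DN libraries, and the ligase gene Rnf149 had 45.8, 46.7 and 46.3 over controls of 25.5 to 34.4. App, the amyloid precursor gene, had 5.25, 5.83 and 6.05 FPKM over controls of 1.12 to 2.44, and Madd, a regulator of Rab3 and of TNF receptor signalling, had 5.11, 6.34 and 6.74 over 1.504 to 2.35. These were steady across p150DN replicates. LOC105246046, a long non-coding RNA inside Atf7, measured 4.28, 4.60 and 5.03 FPKM in EGFP 8-cell, 0.836 and 1.26 in blastocyst and 12.3, 36.2 and 23.1 in p150DN libraries, and Snord95, a small nucleolar RNA inside the abundant Rack1, had 31.0, 40.6 and 30.2 FPKM on as few as 34 fragments, so both are uncertain. Exoc3l4, Ceacam19, Lrrc28, Slc35e3, Lrrc45, Rnf166, Rpp25, Dio1, Tbc1d23, Lypd5, Fbxl16, Zcchc14, St5, Ccpg1os, Fam83b, Adtrp, Alg2 and Entpd7 are further genes of the 86, with ratios of 1.303 to 2.06 among all but Exoc3l4, at 2.09. Counting is also uncertain where a gene overlaps another expressed gene, as Eng does Fpgs, Zcchc14 does Map1lc3b, Arg2 does Vti1b, Lrrc45 does Cenpx, Rnf166 does Ctu2, Entpd7 does Cox15 and St5 does Akip1.

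Values on either side of the limits lay close together. At the ratio limit, Adgrg1 (1.302), Entpd7 (1.303) and Osbpl6 (1.307) were kept, while Polk (1.294), Baiap2 (1.292) and Ywhaq (1.291) were not. At the limit of mean level, Id1 (3.18 FPKM), Exoc3l4 (3.19) and Ankrd37 (3.28) were kept, while Notum (2.97), Myrfl (2.76) and Rbp2 (2.71) were not.

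**Figure D3:**
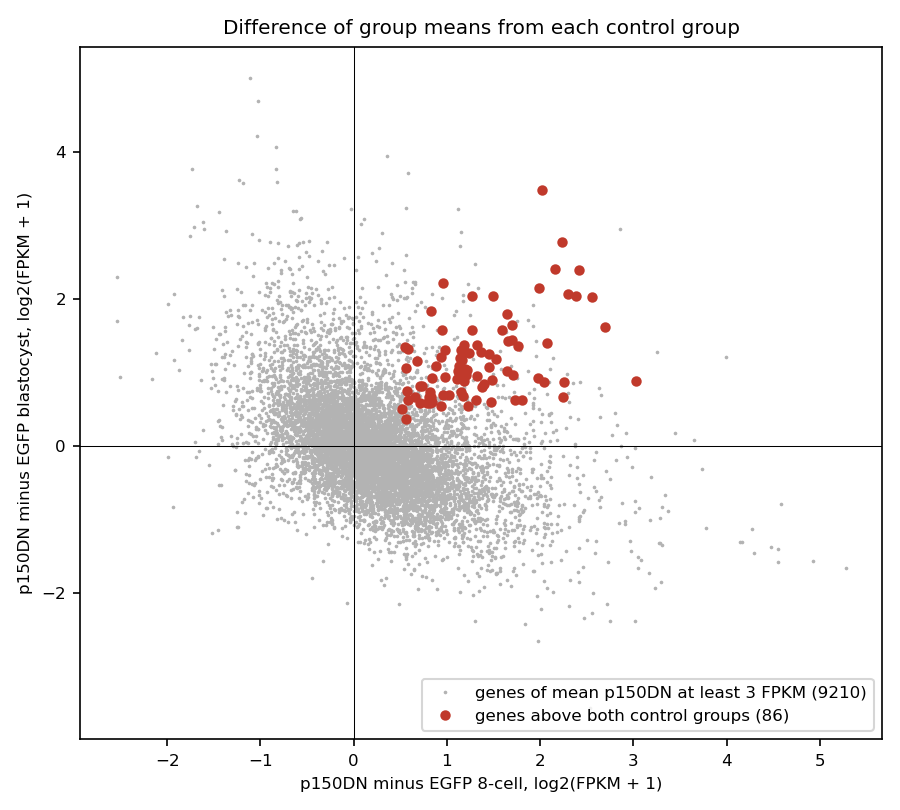
Difference of the p150DN mean from the EGFP 8-cell mean (x axis) and from the EGFP blastocyst mean (y axis), both on the log2(FPKM + 1) scale, for genes of mean p150DN of at least 3 FPKM (grey) and for the 86 genes (red). All red points lie above 0 on both axes, by construction of the rule, and both axes share the p150DN libraries.

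Measured over group means, the 86 genes lay a median of 2.91-fold above EGFP 8-cell embryos and 2.52-fold above blastocysts, with lowest values of 1.43 and 1.39. Folds reached 31.0 for Nkx2-9 over EGFP 8-cell embryos and 24.5 for S100a3 over blastocysts. On the log2(FPKM + 1) scale the median differences were 1.20 and 1.03, against 0.19 and -0.05 for all genes tested. No fold is given for Mlana over EGFP 8-cell embryos, where it had 1 fragment in all, or for Reg1 over blastocysts, where it was listed at 0.

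The rule did not set which control stage was higher, but its ceiling used the same 5 control libraries. The difference between these stages was tested, with SE and p-values that do not allow for that choice. Of the 76 genes that passed the filter, 15 (19.7%) were higher and 6 (7.89%) lower in blastocysts than in EGFP 8-cell embryos (limma adjusted p below 0.05), against 42.6% and 24.9% of 12199 tested genes, or 67.5% in either direction. The ceiling takes the higher of both stages and so favours genes that differ little between them, and nothing is read from this low share. The other 10 genes, Reg1, Asb12, Il33, Stfa2l1, Fosl1, Id1, Exoc3l4, Il23a, Igflr1 and Marveld1, were too low in controls to be tested. Median-of-ratios scaling gave 9 higher and 8 lower, and quantile normalization 8 and 15, so the direction of the split depends on the scaling. Without blastocyst replicate 1 or 2, which leaves a lone blastocyst library that is assumed to vary like the 8-cell libraries, 5 or 6 genes were higher.

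Among the genes higher in blastocysts, Nkx2-9 differed by 2.15 ± 0.23 (log2, SE, limma adjusted p = 0.000252), Pnliprp2 by 1.58 ± 0.26 (limma adjusted p = 0.00155) and Mlana by 1.39 ± 0.21 (limma adjusted p = 0.000926). Cox6b2 differed by 1.18 ± 0.24, Rbm38 by 1.16 ± 0.14 and Hhex by 1.10 ± 0.17, with limma adjusted p of 0.00433, 0.000415 and 0.0011. For these 6 genes the blastocyst values lay above all 8-cell control values and below all p150DN values. Among those lower in blastocysts, LOC105246046 fell by 1.47 ± 0.18 (limma adjusted p = 0.000394), Foxi3 by 1.26 ± 0.19 (limma adjusted p = 0.000931) and Antxr1 by 1.01 ± 0.17 (limma adjusted p = 0.00158). Adtrp fell by 0.79 ± 0.20 (limma adjusted p = 0.0106), Amotl1 by 0.63 ± 0.23 (limma adjusted p = 0.0426) and Osbpl6 by 0.50 ± 0.14 (limma adjusted p = 0.0187). In these 6 genes the blastocyst values lay below all EGFP 8-cell values and the p150DN values above them. With 1 blastocyst library left, under the same assumption, calls for Amotl1 and Osbpl6 were lost, with log2 differences of -0.41 and -0.52 without replicate 1 and -0.85 and -0.48 without replicate 2. Both calls were also lost without EGFP 8-cell replicate 1, and that of Adtrp without blastocyst replicate 2, at -0.57 (limma adjusted p = 0.0954).

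**Figure D4:**
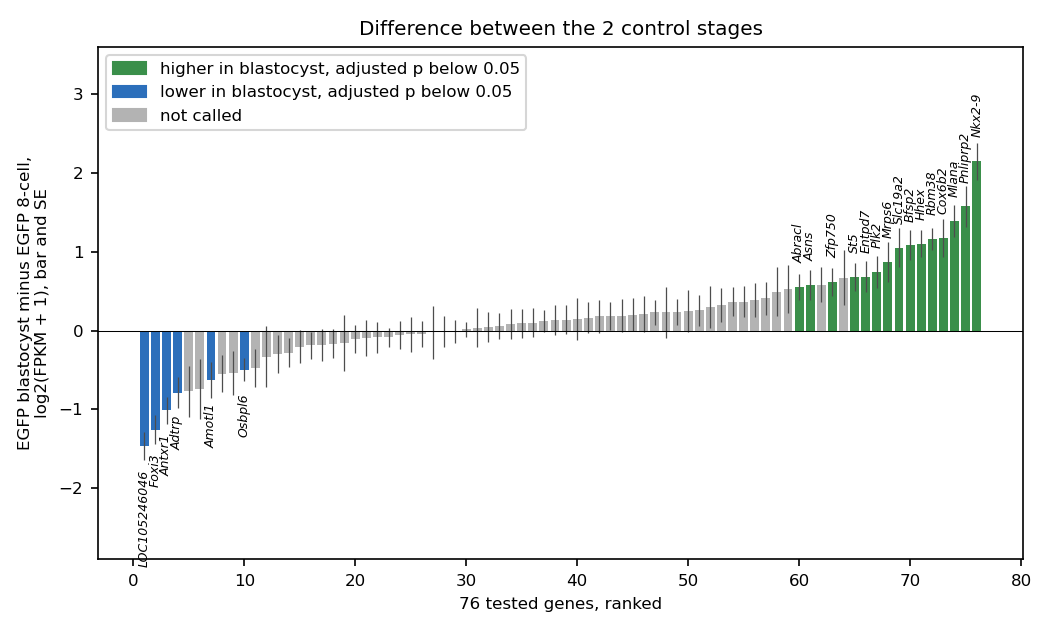
Blastocyst minus EGFP 8-cell difference on the log2(FPKM + 1) scale (y axis, bars, with SE) for the 76 tested genes ranked along the x axis. The 15 genes called higher stand at the right with Nkx2-9 at 2.15, the 6 called lower at the left with LOC105246046 at -1.47, and the 55 in grey were not called.

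The p150DN libraries did not contribute evenly. Replicate 2 was the highest of the 3 in 51 of the 86 genes (59.3%), against 35.0% of genes of mean p150DN of at least 3 FPKM. Replicate 1 was the lowest in 53 (61.6%, against 39.6%) and so set the ratio of most genes. The median coefficient of variation over the p150DN libraries was 20.3% for the 86 genes and 16.1% for all genes of that level. Genes above 0 FPKM numbered 18412, 20465 and 21282 in replicates 1, 2 and 3. Summed markers of oviduct epithelium were 5.63, 15.8 and 12.9 FPKM in the p150DN libraries, 3.35 to 5.28 in EGFP 8-cell and 5.84 to 6.96 in blastocyst libraries. Fibroblast markers were 6.13, 15.5 and 13.7 FPKM, against 6.15 to 8.35 over the controls. These sums, 17 and 24 genes, of which 5 and 6 reached 1 FPKM in any library, were higher in replicates 2 and 3. Neuronal markers (118.6, 192.9 and 140.8 FPKM, with 167.2 to 179.2 in EGFP 8-cell) and blood markers were also lowest in replicate 1. That did not hold for cumulus (294.7, 315.6 and 276 FPKM), sperm (26.58, 24.85 and 33.43) or muscle markers (191.1, 188.5 and 247.3). The part of any of these lists in the values of the 86 genes was not tested.

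Leaving out a library can only raise a gene's ratio or leave it as it is. The genes of the 86 can then be lost only through the limit of mean level, so nothing is read from how many stay. The number of genes that pass shows how far each library held it down. Without p150DN replicate 1 the rule found 242 genes, including 84 of the 86. Without replicate 2 it found 96 and without replicate 3 it found 106, including 79 and 84. With replicate 1 as the sole p150DN library, 194 genes passed and 74 of the 86 were among them. Against EGFP 8-cell libraries alone 1617 genes passed, and against blastocyst libraries alone 1174, so that the second stage removed most candidates in either case. After median-of-ratios scaling, 43 genes passed, 41 of them in the 86, and after quantile normalization 57, 46 of them in the 86. With these scalings 85 and 76 of the 86 still lay above every control library, though many below the limit of 1.3.

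**Figure D5:**
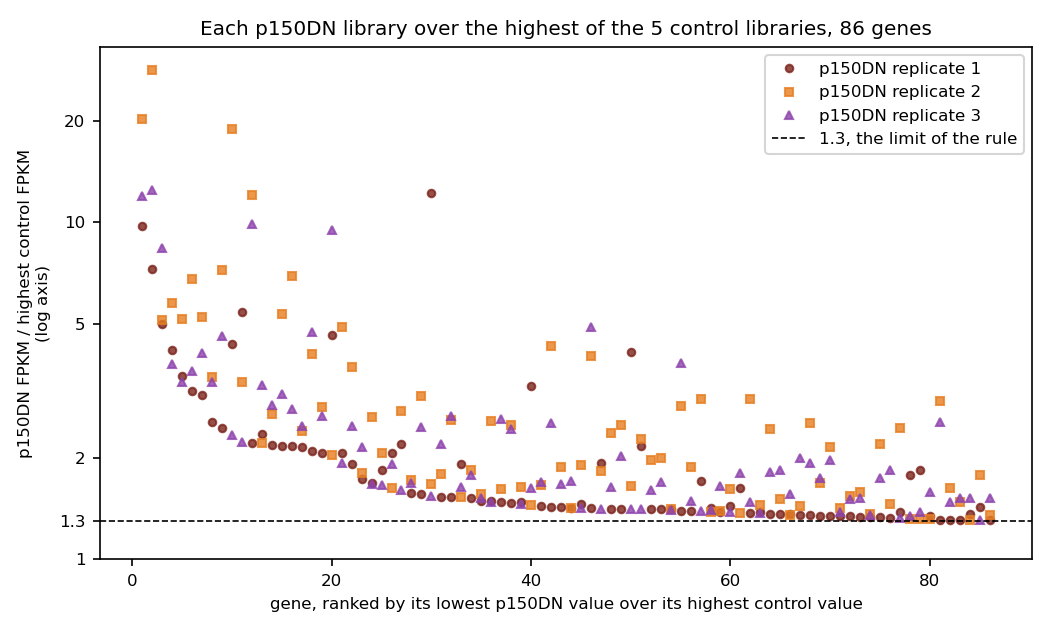
Each p150DN library's FPKM over the highest of the 5 control libraries (y axis, log axis) for the 86 genes ranked by their lowest such ratio (x axis), with a marker for each replicate and a dashed line at 1.3. Replicate 2 is the highest marker in 51 genes, and replicate 1 the lowest in 53.

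Other stress and signalling lists held few of the 86 genes, 17 of which belong to any of the 30 lists. Each list count includes its own genes of the 86, which were chosen for lying above both controls, and nothing is read from their calls. The counts stand beside 24.6% higher and 9.68% lower of all genes tested against EGFP 8-cell embryos, and 11.9% and 14.2% against blastocysts. In the AP-1 and immediate-early list, with Fosl1 and Dusp5, 19 of 32 tested genes were higher and 2 lower against EGFP 8-cell embryos, and 3 and 1 of 34 against blastocysts. Jun, another AP-1 subunit, measured 1.34, 1.43 and 1.98 FPKM in EGFP 8-cell, 16.7 and 19.03 in blastocyst, and 15.3, 15.3 and 24.0 in p150DN libraries. It rose by 2.87 ± 0.22 (SE) on the log2 scale over EGFP 8-cell embryos (limma adjusted p = 0.000171) and its difference from blastocysts did not pass the test (limma adjusted p = 0.996). Csrnp1 fell by 1.19 ± 0.15 (limma adjusted p = 0.000913). In the annexin and S100 list, with S100a3, 11 of 13 tested genes were higher and none lower against EGFP 8-cell embryos, but 1 was higher and 3 lower of 14 against blastocysts. S100a11 rose by 3.74 ± 0.19 over EGFP 8-cell embryos (limma adjusted p = 3.96e-05).

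The heat shock list, with Hspa2, had 18 of 27 higher and none lower against EGFP 8-cell embryos, and 2 higher and 3 lower of 28 against blastocysts, where the share higher was below that of all tested genes. In the cytokine and inflammation list, with Il33, 13 of 25 were higher and 3 lower, then 2 and 3 of 29. In the cytoskeleton and adhesion list, with Lasp1, 28 of 42 were higher and 2 lower, then 2 and 19 of 46. The antioxidant list held none of the 86 genes, with 26 of 35 higher and 3 lower against EGFP 8-cell embryos and 1 and 18 of 39 against blastocysts. With replicate 1 as the sole p150DN library, and the spread from the EGFP 8-cell libraries alone, 5 of 25 AP-1 and immediate-early genes, 7 of 20 cytokine genes, 13 of 30 antioxidant genes and 7 of 10 annexin and S100 genes were called higher, and 21 of 37 in the p53 list. Without p150DN replicate 3 the AP-1 and immediate-early list had 10 higher and the cytokine list 7. Higher genes still outnumbered lower ones in each of these lists against EGFP 8-cell embryos under median-of-ratios scaling and quantile normalization. For all tested genes those scalings turned 2887 higher and 1136 lower into 1753 and 2239, or 1779 and 1831, and moved the median log2 difference from 0.19 to -0.06 or -0.03.

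By position, chromosome 19 carried 11 of the 86 genes (12.8%), against 3.51% of genes of mean p150DN of at least 3 FPKM. They are Il33, Fosl1, Slc3a2, Stn1, Mlana, Marveld1, Hhex, Pnliprp2, Nanos1, Dusp5 and Entpd7. The count was noticed in the data and has no test. The median log2 difference of all tested chromosome 19 genes was 0.26 against EGFP 8-cell embryos, where all genes had 0.19, and -0.01 against blastocysts.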

How the data were processed

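The authors deposited FPKM values for 8 RNA-seq libraries, 1 column per library, per the file headers. Per the labels' protocols, a stranded SMART-seq kit was used on total RNA. Build mm10 and the tools HISAT2, featureCounts, SAMtools, Trim Galore and Bowtie2 are named, with no version, in the submitters' processing notes. The sources used here give neither annotation nor strand setting, so overlapping and antisense genes are uncertain. FPKM fixes each library's total, so a change in RNA per embryo cannot be seen. The 8-cell columns without p150DN were taken as EGFP 8-cell, the one such group in the labels. The other 65 of 73 samples were not analysed here.

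The 86 genes, the lists and the motifs were chosen with earlier results of these data known. Depth was recovered from the spacing of low values, as whole fragments within 0.02. limma 3.58.1 (R 4.3.3) was fitted with an intensity trend on log2(FPKM + 1), a scale that understates changes of low genes. Tests were two-sided, with libraries of the compared groups alone, and a gene needed 1 FPKM or more in 2 libraries, or in 3 for p150DN against EGFP 8-cell. Benjamini-Hochberg adjusted p-values below 0.05 over all tested genes were called. In simulated data, 2-fold changes of FPKM + 1 were set in a small part of the genes, fewer than were called in the data. The share recovered was 50% for p150DN against EGFP 8-cell and between stages, and 25% for p150DN against blastocysts. For low genes such a change is more than 2-fold in FPKM. Genes named are the 25 of largest ratio, those in lists, those nearest the limits, and up to 6 called between stages in each direction. For each list up to 2 called genes per direction could be named, and other genes were named by role. Symbols (25119, 99.6%) matched RefSeq tables of assembly GRCm38.p6, the source of all coordinates and sequences. Alternatives were other thresholds, filters, pseudocounts, scalings, a replicate block and omitted libraries. Some of the 86 genes are counted but not reported individually here.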

Additional observations from a re-analysis of the deposited data

How the results depend on the processing

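The number of genes above both stages was 34 at a ratio of 1.5 and 20 at 2, 173 with a mean of at least 1 FPKM, 43 with median-of-ratios scaling and 57 with quantile normalization. It ran from 94 to 242 with 1 library left out, where the ratio limit can only loosen, and was highest without p150DN replicate 1. Alternatives chosen after seeing the data gave 194 with replicate 1 as the sole p150DN library, 1617 without the blastocyst libraries and 1174 without the EGFP 8-cell libraries. Genes of the 86 higher between stages numbered 5 to 17 with 1 library left out, and 9 and 8 with median-of-ratios and quantile scaling. Those lower numbered 4 to 8, 3 with a filter at 5 FPKM and 15 with quantile normalization.

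Leaving out 1 library gave 5459 to 8144 calls between stages, against 8236. For p150DN against EGFP 8-cell it gave 2238 (without p150DN replicate 3) to 3553, against 4023, with 2560 without EGFP 8-cell replicate 1 and 2314 with p150DN replicate 1 alone. A lone library in a group is assumed to vary like the libraries of the other group, which alone give the spread. For p150DN against blastocysts it gave 323 to 4215, against 3301, with 501 and 323 without blastocyst replicate 1 or 2, and 1555 with no filter. Between stages, 63.1% of calls were higher, 53.3% with median-of-ratios scaling and 51% with quantile normalization. With the filter removed, the call for Amotl1 was lost (limma adjusted p = 0.0951), as it was without EGFP 8-cell replicate 2 (limma adjusted p = 0.0591). No other named stage call changed side under a scaling, filter or pseudocount. The cause of these changes was not tested.

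Replicate numbers were not taken as pairs in the main fit. The deviations of same-numbered p150DN and EGFP 8-cell libraries correlated at 0.06, 0.10 and 0.03 over genes, so not all above 0.1. Those of unlike number correlated at -0.12 to 0.08. With 3 libraries in a group these values cannot exclude a pairing. A replicate block gave 4081 calls for p150DN against EGFP 8-cell, 3072 against blastocysts and 7861 between stages, where the Osbpl6 call was lost (limma adjusted p = 0.0543). Depth limits the 9 genes with fewer than 50 fragments in a p150DN library.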

Other observations

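The genes that lay below both control stages by the mirror rule were 10, and 4 of them encode histones. The share of histone genes among all genes of that level was not counted, so nothing is read from this number. H1f1, a linker histone H1 gene, measured 816.5, 708.8 and 835.9 FPKM in EGFP 8-cell, 693.0 and 719.6 in blastocyst, and 512.4, 465.5 and 379.9 in p150DN libraries. Hist1h4n, a histone H4 gene, measured 139.6, 83.2 and 101.9 FPKM, then 83.7 and 82.0, then 61.5, 49.4 and 27.6 in the same order of groups. H2ac18, a histone H2A gene, measured 61.5, 54.2 and 83.1 FPKM, then 51.8 and 66.9, then 33.0, 20.7 and 28.4. H2ac19, its near-identical copy, ran slightly below it in all 8 libraries, so the counting of the pair is uncertain. Replication-dependent histone genes are transcribed in S phase and their messages lack poly(A) tails. The other 6 genes are Wipf1, an actin regulator, Gmeb1, Fbxo6, Ppp1r35, Zbed4 and Cuedc2. Fbxo6, a ubiquitin ligase subunit that recognises glycoproteins, measured 22.6, 24.2 and 22.8 FPKM, then 16.5 and 19.3, then 11.4, 10.3 and 11.1, so its p150DN libraries lay together below all controls. As with the 86 genes, the values chose these genes and no test was made.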
